A study of Mus musculus with 2 samples.

Results

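The 32 genes described here are mouse Myc and genes of ribosome biogenesis and polyamine synthesis that are commonly read as targets of the transcription factor MYC. They were chosen by name and matched by Entrez ID, and the rule uses no measured value. They are 32 of the 24532 gene IDs in the deposited tables, and all 32 were among the 12029 genes that reached 1 TPM in either library. TPM is the abundance of a transcript per unit of length, scaled so that each library sums to 1000000.

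A ribosome is built in the nucleolus. RNA polymerase I transcribes the ribosomal RNA precursor, small nucleolar ribonucleoproteins (snoRNPs) guide its methylation and pseudouridylation, and assembly factors cut and fold it into the small and the large subunit. MYC binds the promoters of many of these genes, often at the E-box CACGTG, and their RNA is widely used as a readout of MYC activity. In the thymus MYC is known for the growth of proliferating precursors before the double-positive (DP) stage, at which thymocytes carry both CD4 and CD8. CD69 appears on DP cells that have received a T cell receptor signal.

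The study compared sorted CD69+ DP thymocytes of C57BL/6 mice aged 6 weeks. The wild-type-labelled library came from NSRP1 f/f mice with no Cre in the label. The KO-labelled library came from NSRP1 f/f CD4Cre mice, labelled as a conditional knockout of NSrp70, the splicing-related protein encoded by Nsrp1. Both genotypes carry the floxed alleles, and the Cre is driven by Cd4 sequences, which are active in thymocytes and in T cells descended from them. The number of animals behind each library is not stated.

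Each genotype had 1 library, so no difference below has a replicate check and no p-value is given. Sizes were described by 2 rules, a log2 difference of 0.3 (1.23-fold) and of 1 (2-fold), where the log2 difference is log2((TPM + 1) in the KO-labelled library / (TPM + 1) in the wild-type-labelled library). Intervals are 95% and cover counting error only. They come from read pairs estimated from the deposited coverage, and the members had from 444 to 22026 read pairs in a library. In bulk RNA a smaller number of cells that express a gene and less RNA per cell cannot be told apart.

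The wild-type-labelled and KO-labelled libraries held 4199 and 5076 megabases on annotated exons. Nsrp1 was at 29.7 TPM in the wild-type-labelled library and 29.6 TPM in the KO-labelled library, so its total RNA does not separate the labels. The sources used here do not say which exons the deletion removes. All 13 DP markers were measured, with a median log2 difference of 0.05, 8 above 0 and 5 below. Cd8a was at 1138 and 1151 TPM, and Cd69 at 430 and 522 TPM (0.28). The 2 that reached log2 0.3 did so upward, Dntt at 572 and 760 TPM (0.41) and Rag2 at 35.5 and 44.3 TPM (0.31). The lowest were Cd3e at 944 and 862 TPM (-0.13) and Cd4 at 725 and 663 TPM (-0.13). Without the last exon of each gene the median of the 13 was -0.03, with 6 above 0 and 7 below. Dntt (0.38) was then the 1 marker past log2 0.3 upward and Rag1 (-0.45) the 1 downward, with Rag2 at 0.19 and Cd4 at -0.28. Among lists of other cell types, 8 B cell markers summed to 58.7 and 68.3 TPM and 12 myeloid markers to 387 TPM in both libraries. The 10 epithelial and stromal markers summed to 127 and 113 TPM, nearly all of it Pecam1, an endothelial adhesion molecule also made by blood cells, at 119.5 and 103.7 TPM, and 6 of the 10 were at 0 in both libraries, as were 5 of 8 erythroid markers. The 9 markers of earlier, double-negative and blast thymocytes summed to 107 and 88.4 TPM. Of the 6 that passed the minimum, 2 were above 0 and 4 below, with a median log2 difference of -0.27. The lowest was Notch3, at 13.3 and 5.13 TPM (-1.22), and Cd44 was also below 0 (-0.30). Those above 0 were Ptcra (0.22) and Il2ra (0.10). The heat shock genes Hspa1a (467 and 0.525 TPM) and Hspa1b (493 and 0.558 TPM) were nearly absent from the KO-labelled library. The part of these differences in the values below was not tested.

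The ribosome biogenesis genes were well expressed in both libraries and differed little between them. Their median level was 81.6 TPM in the wild-type-labelled library and 84.2 TPM in the KO-labelled library, where all genes that passed the minimum had a median of 30.3 TPM in the former. Summed, the 32 genes held 3570 and 3743 TPM. Their order by level was nearly the same in both libraries (Spearman rho 0.97 over 32 genes, a description). The plot of levels by role shows the pairs of points close together at every level, with Odc1 as the widest gap.

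**Figure D1:**
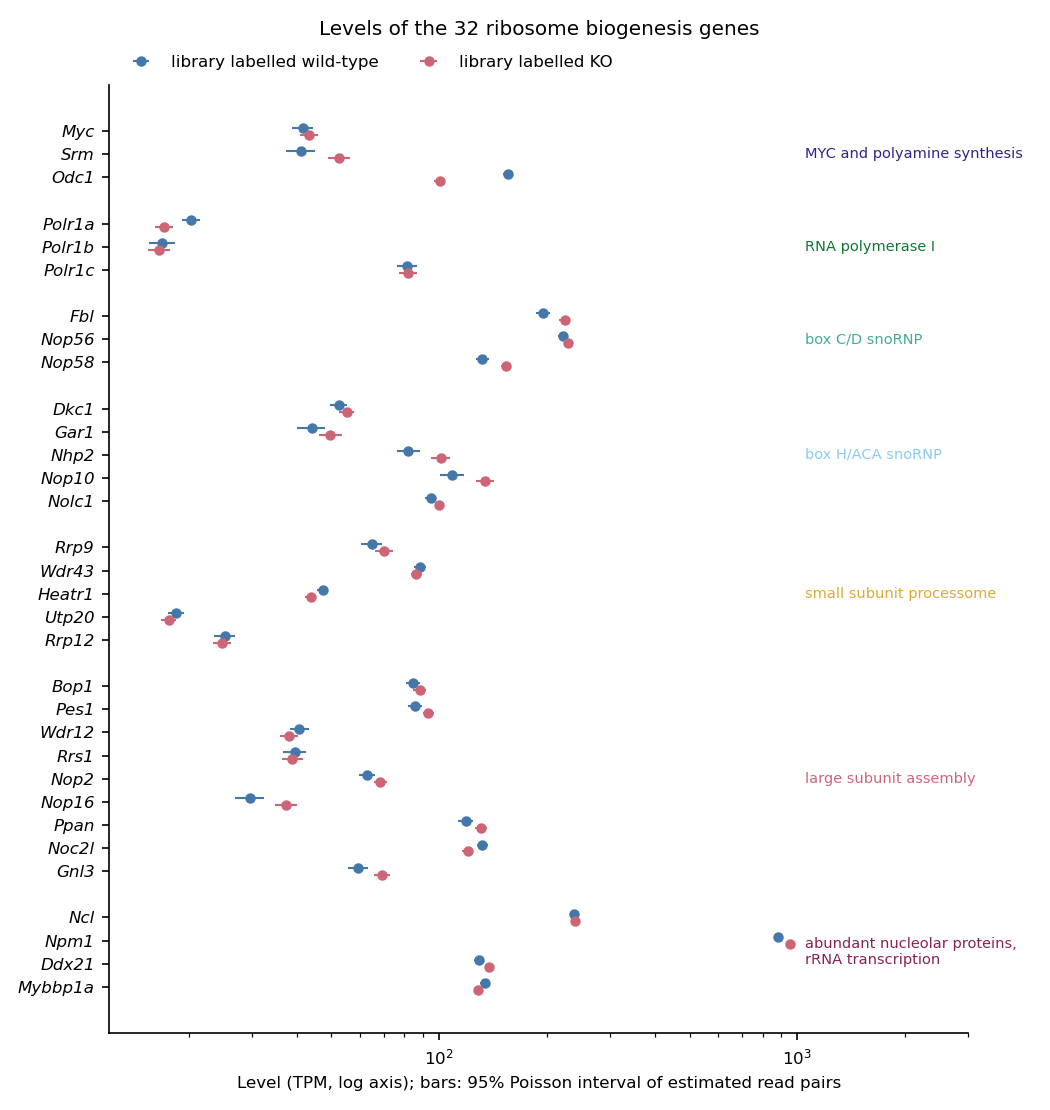
TPM (log axis) of each of the 32 genes in the wild-type-labelled library (blue) and the KO-labelled library (red), grouped by role, with 95% Poisson intervals of the estimated read pairs. The points of most genes lie close together, and those of Odc1, 155.5 and 100.3 TPM, are the furthest apart.

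The median log2 difference of the members was 0.07, against -0.07 over all 12029 genes. Of the 32 genes, 21 were above 0, where 38.5% of all genes were. The size rule of log2 0.3 was reached upward by 3 members, Srm, Nop16 and Nop10, against 7.28% of all genes, and downward by 1 member, Odc1, against 18.2% of all genes. No member reached log2 1 in either direction, which 0.657% of all genes did upward and 1.37% downward. A difference within 0.5 was found for 31 members and for 90.2% of all genes. The interval of the TPM ratio, which covers counting error only, lay above 1 for 14 members, below 1 for 5, and held 1 for 13. The same shares over all genes were not computed, so these counts do not set the members apart from other genes.

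These directions are relative to the scaling. The deposited FPKM is not scaled to a fixed sum over transcripts. In it the median of all genes was 0.02 and 28 of 32 members were above 0. The share of all genes above 0 in FPKM is not given here, so that count has no background. The share of all genes past log2 0.3 in FPKM was 10.5% upward and 8.90% downward. With TPM rescaled so that the median gene is at 0, 27 members were above 0. The signs of Polr1b, Wdr43, Utp20, Rrp12, Rrs1 and Mybbp1a flipped from below to above 0 under both of these scalings, and that of Wdr12 in FPKM only.

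**Figure D2:**
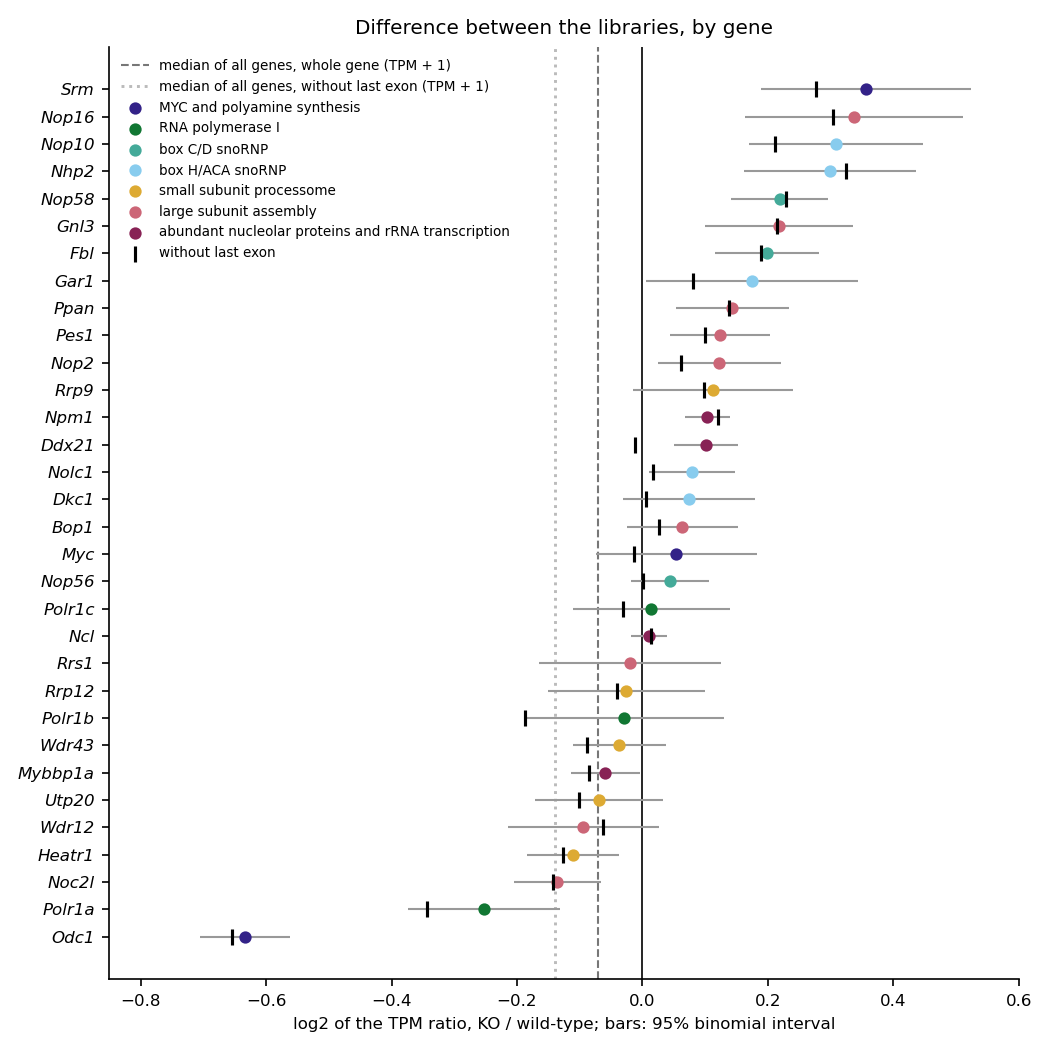
log2 of the TPM ratio (KO / wild-type) of each gene, coloured by role, with 95% binomial intervals, and the same ratio from exon depth without the last exon (black ticks); vertical lines mark 0 and the medians of all genes, -0.07 and -0.14. Odc1 lies apart on the left, and Srm, Nop16, Nop10 and Nhp2 lead on the right.

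Myc encodes the transcription factor that gives the group its name. Its level was 41.7 TPM (95% interval 38.9 to 44.5) in the wild-type-labelled library and 43.3 TPM (40.8 to 45.8) in the KO-labelled library. The intervals overlap, and the ratio of 1.04 (0.95 to 1.14) holds 1. Without the last exon the depth of Myc was 33.9 and 33.6 TPM-equivalents, that is, coverage scaled to the TPM of the library. In TPM any difference in the total RNA of Myc was within counting error. Its log2 difference was 0.05 in TPM, 0.15 in FPKM and 0.12 after rescaling to the median gene, with a counting error of 0.13.

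The annotated transcripts of Myc differ in the second exon, which has a longer form with 3 more bases at its start. Transcripts with the longer form held 70.5% of Myc TPM in the wild-type-labelled library and 54.1% in the KO-labelled library. The coverage that the files assign to the exon itself gave 68.6% and 50.8%. The 3 bases lie at chr15:61987507-61987509 (GRCm38, plus strand), in the coding sequence annotated for the GENCODE M21 transcript used here. They lie before the atg that ends the printed stretch, and a protein started at that atg would not hold them. Within 30 bases of that transcript they are shown in capitals, because they are all that separates the forms at this exon.
Myc, exon 2: ttggaaaccccgCAGacagccacgacgatg
The most abundant transcript, NM_010849 (longer form), held 50.2% and 35.1%. The 2 transcripts with the shorter form each held more in the KO-labelled library, NM_001177354 with 15.8% and 25.4% and NM_001177353 with 13.7% and 20.4%. The other transcript with the longer form, NM_001177352, held 20.3% and 19.0%. A read tells the forms apart only where it crosses the junction before this exon, and no interval can be given for these shares.

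Srm and Odc1 encode enzymes of polyamine synthesis and are both textbook MYC targets. Srm, the spermidine synthase, was at 41.1 TPM (37.5 to 45.0) in the wild-type-labelled library and 52.7 TPM (49.0 to 56.5) in the KO-labelled library. It was higher in the latter by a ratio of 1.28 (1.14 to 1.44), a log2 difference of 0.35 and the highest of the 32. All 7 of its exons were deeper in the KO-labelled library, by ratios from 1.08 to 1.52.

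Odc1, the ornithine decarboxylase that makes putrescine, went the other way. It was at 155.5 TPM (150.3 to 160.8) in the wild-type-labelled library and 100.3 TPM (96.6 to 104.0) in the KO-labelled library. The ratio was 0.645 (0.613 to 0.678), a log2 difference of -0.63, the lowest of the 32 and the one member past log2 0.3 downward. All 12 exons were shallower in the KO-labelled library, with ratios from 0.517 to 0.729. In FPKM the log2 difference was -0.52. Of the 50-base words of its transcript, 42.2% also occur in other genes, mostly pseudogenes absent from the tables used here, so its level is uncertain to that extent. Of those copies only AW146154 has a value in the tables, 7.10 and 7.78 TPM.

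The other enzymes of polyamine and hypusine metabolism did not share one direction. Of 13 with a value above the minimum, 9 were above 0, 4 reached log2 0.3 upward and 2 downward, and the median was 0.14. The lowest was Azin1, the antizyme inhibitor that protects ornithine decarboxylase from degradation, at 97.4 and 55.9 TPM (log2 difference -0.79). Without its last exon the log2 difference of Azin1 was -0.25. Oaz1, an antizyme that targets ornithine decarboxylase for degradation, was at 28.2 and 22.2 TPM (-0.33). Eif5a, the factor modified with hypusine from spermidine, was at 702 and 874 TPM (0.32), and Mtap, which recycles the by-product of spermidine synthesis, at 29.4 and 36.8 TPM (0.31). One gene passed log2 1, Amd1, at 0.0044 and 1.52 TPM. Its near-identical copy Amd2 was at 24.7 and 24.4 TPM and the sum of both at 24.7 and 25.9 TPM, so the split of reads between the copies is uncertain. Amd1 was named after its value was seen.

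The members of RNA polymerase I, which transcribes the ribosomal RNA genes, had a median log2 difference of -0.03, which was 0.06 in FPKM and 0.04 after rescaling to the median gene. Polr1a, the largest subunit, was at 20.3 TPM (19.1 to 21.5) in the wild-type-labelled library and 17.0 TPM (16.1 to 18.0) in the KO-labelled library. It was lower in the latter by a ratio of 0.839 (0.772 to 0.913). Without its last exon Polr1a was at 18.5 and 14.5 TPM-equivalents, a log2 difference of -0.32, and 19 of its 23 tested exons were shallower in the KO-labelled library. Polr1b, the second largest subunit, was at 16.9 and 16.5 TPM, and Polr1c, a subunit shared with RNA polymerase III, at 81.2 and 82.0 TPM. Their intervals overlap.

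Other genes listed with the polymerase I machinery were spread on both sides. The list includes Znhit3 (0.15), whose place in this machinery is not established here. Of 15 genes 9 were above 0, 3 reached log2 0.3 upward and 1 downward, with a median of 0.11. The highest were the shared subunits Polr2l, at 29.3 and 40.0 TPM (0.44), and Polr2f, at 61.4 and 80.3 TPM (0.38). The lowest were Taf1c, at 71.3 and 55.7 TPM (-0.35), and Taf1d, at 140 and 118 TPM (-0.24), both subunits of the factor that selects the ribosomal RNA promoter. Polr1f, Polr1g and Polr1h were not matched by name and are not analysed here.

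The box C/D snoRNPs place methyl groups on ribosomal RNA, and all 3 members of their core were above 0. Fbl, the methyltransferase fibrillarin, was at 195 TPM (187 to 204) in the wild-type-labelled library and 224 TPM (216 to 232) in the KO-labelled library, a ratio of 1.15 (1.08 to 1.22). Nop58 was at 132 TPM (127 to 138) and 154 TPM (148 to 159), a ratio of 1.16 (1.10 to 1.23). For both genes the intervals of the libraries do not overlap. Nop56, the partner of Nop58 in the particle, was at 222 and 229 TPM, and its ratio of 1.03 (0.988 to 1.08) holds 1. Of the 50-base words of Fbl 73.0% occur elsewhere, chiefly in Tulp4 transcripts and the pseudogene Gm5812, and 37.6% of those of Nop56 do, so both levels are uncertain. Tulp4 itself was at 21.5 and 15.2 TPM.

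The box H/ACA snoRNPs turn uridine into pseudouridine, and all 5 members of this role were above 0, with a median of 0.17. Dkc1, the pseudouridine synthase dyskerin, was at 52.4 and 55.2 TPM, a ratio of 1.05 (0.978 to 1.13) that holds 1. The 3 small proteins that bind dyskerin were each higher in the KO-labelled library. Nop10 was at 109 TPM (101 to 117) in the wild-type-labelled library and 135 TPM (127 to 143) in the KO-labelled library, a ratio of 1.24 (1.13 to 1.36). Nhp2 was at 82.1 TPM (76.2 to 88.4) and 101 TPM (95.2 to 107), a ratio of 1.23 (1.12 to 1.35). The intervals of these 2 genes do not overlap between libraries. Gar1 was at 44.1 TPM (40.2 to 48.1) and 49.7 TPM (46.1 to 53.5), where the intervals overlap. All 4 exons of Nhp2 and both exons of Nop10 were deeper in the KO-labelled library. Nolc1, a nucleolar phosphoprotein that binds snoRNPs, was at 94.8 and 100.2 TPM, and its exons are described below.

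Among the 12 other core and assembly factors of snoRNPs 10 were above 0, with a median of 0.11. One reached log2 0.3 upward, Pih1d1, a part of the complex that assembles box C/D particles, at 57.2 and 73.4 TPM (0.35). Ruvbl1, an ATPase of the same pathway, was at 80.7 and 99.5 TPM (0.30, just below the rule). One reached log2 0.3 downward, Naf1, an assembly factor of box H/ACA particles, at 11.8 and 9.003 TPM (-0.35). Tgs1, the enzyme that adds further methyl groups to the cap of some small RNAs, was at 43.1 TPM in both libraries.

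The small subunit processome is the large particle that cuts out the small subunit ribosomal RNA. Of its 5 members 1 was above 0, and the median was -0.04, which was 0.06 in FPKM and 0.03 after rescaling. Heatr1 was at 47.3 TPM (45.5 to 49.1) in the wild-type-labelled library and 43.7 TPM (42.3 to 45.3) in the KO-labelled library, a ratio of 0.926 (0.880 to 0.974). It was the one of the 5 whose ratio interval lay away from 1, and 37 of its 44 tested exons were shallower in the KO-labelled library. Exons 42 to 45 of Heatr1, at its 3' end, were deeper there, with ratios from 1.02 to 1.32. The log2 difference of Heatr1 was -0.11 in TPM, -0.01 in FPKM and -0.04 after rescaling to the median gene. Wdr43 was at 88.5 and 86.3 TPM, Utp20 at 18.4 and 17.6 TPM, and Rrp12, which also acts in export of the small subunit, at 25.2 and 24.7 TPM. Rrp9, a protein of the U3 snoRNP, was at 64.9 and 70.2 TPM. The ratio intervals of these 4 hold 1.

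Of 45 other small subunit factors 27 were above 0 and the median was 0.02. Upward, 2 reached log2 0.3, Rrp8 at 28.6 and 47.8 TPM (0.72) and Ltv1, an export and maturation factor of the small subunit, at 60.2 and 75.0 TPM (0.31). None reached it downward, and the lowest were Pdcd11 at 41.9 and 34.6 TPM (-0.27) and Utp25 at 37.9 and 32.2 TPM (-0.23). Rrp8, a nucleolar methyltransferase, differed in its last exon, since without it the log2 difference was 0.00035.

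Large subunit assembly factors made up the largest role, with 9 members and a median log2 difference of 0.12. Bop1, Pes1 and Wdr12 form one complex, named PeBoW, that is needed for processing of the large subunit precursor. Pes1 was at 85.6 TPM (82.1 to 89.3) and 93.3 TPM (90.0 to 96.7), Bop1 at 84.5 and 88.3 TPM, and Wdr12 at 40.7 and 38.1 TPM. The ratio of Pes1 was 1.09 (1.03 to 1.15), and the ratios of Bop1 (0.983 to 1.11) and Wdr12 (0.862 to 1.02) hold 1. In Pes1 25.1% of 50-base words occur elsewhere, chiefly in the pseudogenes Gm5910 and Gm5472.

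Nop16, a nucleolar protein of large subunit assembly, was at 29.6 TPM (26.9 to 32.5) in the wild-type-labelled library and 37.4 TPM (34.7 to 40.2) in the KO-labelled library. Its ratio was 1.26 (1.12 to 1.42), the intervals do not overlap, and all 5 exons were deeper in the KO-labelled library. Gnl3, the GTPase nucleostemin, was at 59.4 TPM (55.8 to 63.3) and 69.1 TPM (65.6 to 72.7), a ratio of 1.16 (1.07 to 1.26), with 14 of 15 exons deeper. Ppan was at 119 and 131 TPM, a ratio of 1.10 (1.04 to 1.18), and Nop2, a methyltransferase of large subunit RNA, at 63.0 and 68.6 TPM, a ratio of 1.09 (1.02 to 1.17). These 4 were higher in the KO-labelled library.

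Noc2l was lower there in TPM. It was at 132 TPM (127 to 136) in the wild-type-labelled library and 120 TPM (116 to 124) in the KO-labelled library, a ratio of 0.910 (0.868 to 0.955), and 17 of 18 tested exons were shallower. Noc2l shares 598 exon bases with Samd11 on the opposite strand. The strand setting of the counting is not stated, so the pair's reads there cannot be told apart, and Samd11 was at 0.863 and 1.16 TPM. Without its last exon, of 598 bases, Noc2l had a log2 difference of -0.14. For the whole gene it was -0.13 in TPM, -0.04 in FPKM and -0.06 after rescaling to the median gene. Rrs1, a single-exon gene whose protein acts in large subunit assembly, was at 39.5 and 38.9 TPM with overlapping intervals.

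Of 59 other large subunit factors 35 were above 0, 2 reached log2 0.3 upward, 1 reached it downward, and the median was 0.03. The highest were Nifk at 78.5 and 99.9 TPM (0.34) and Lyar at 46.7 and 59.0 TPM (0.33). The lowest was Mdn1, the very large ATPase that strips assembly factors from the maturing subunit, at 32.8 and 24.8 TPM (-0.39), followed by Urb1 at 23.5 and 19.0 TPM (-0.29). Over all 4 lists of other ribosome biogenesis genes, 81 of 131 were above 0 and the median was 0.03.

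The abundant nucleolar proteins and the factors of ribosomal RNA transcription complete the group. Npm1, nucleophosmin, was the most abundant member, at 885 TPM (868 to 902) in the wild-type-labelled library and 951 TPM (936 to 967) in the KO-labelled library. Its ratio of 1.07 (1.05 to 1.10) was small and, with 10602 and 14761 read pairs, measured closely. In Npm1 40.9% of 50-base words also occur in pseudogenes such as Gm9118. Npm1 alone made up 24.8% and 25.4% of the summed TPM of the 32 genes.

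Ncl, nucleolin, was at 238 TPM (234 to 241) and 239 TPM (236 to 242), a ratio of 1.01 (0.987 to 1.03). The TPM of Ncl rests on a gene model of 8257 bases, of which the last exon takes 5978. That exon had a depth of 30.6 and 30.1 TPM-equivalents, while the exons before it had a median depth of 776 and 798. Per base of those exons Ncl thus lay close to Npm1, whose depth without the last exon was 756 and 823 TPM-equivalents. The TPM of the whole Ncl gene lies well below the depth of most of its exons in both libraries. The order of levels among members is therefore uncertain for Ncl, while both parts of the gene gave small log2 differences, 0.01 without the last exon and -0.02 in it.

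Ddx21, an RNA helicase of ribosomal RNA transcription and processing, was at 129 TPM (125 to 132) and 138 TPM (135 to 141), a ratio of 1.07 (1.04 to 1.11). Without the last exon it was at 161 and 160 TPM-equivalents, so the difference lay in the last exon, at 96.4 and 116.6. Mybbp1a, a nucleolar regulator of ribosomal RNA transcription and processing, was at 134 TPM (130 to 138) and 129 TPM (125 to 132), a ratio of 0.960 (0.924 to 0.997). Its log2 difference was -0.06 in TPM, 0.04 in FPKM and 0.01 after rescaling to the median gene.

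Last exons as a class were deeper in the KO-labelled library relative to the rest of their gene, so every member was also measured without its last exon. In 26 of the 31 members with several exons the last exon had a higher ratio than the rest of the gene, with a median log2 deviation of 0.14, where the median over 7862 last exons of all genes was 0.19. Without it, the median log2 difference was 0.01 over 31 members and -0.14 over 11260 genes, and 18 members were above 0 against 31.8% of all genes. The signs of Myc, Polr1c and Ddx21 turned to just below 0. Past log2 0.3 lay 1 member upward, Nhp2 (0.32), against 6.93% of all genes, and 2 downward, Odc1 (-0.65) and Polr1a (-0.32), against 29.7%. Nop16 (0.30), Srm (0.27) and Nop10 (0.21) remained above 0 but under the rule.

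The members' differences followed transcript length. Across the 32 genes the Spearman rho between the length of the most abundant transcript and the log2 difference was -0.70, and without the last exon it was -0.69 over 31 genes. Across all 12029 genes it was -0.36, and without the last exon -0.50 over 11260. These are descriptions across genes of the same pair of libraries, and genes are not replicates. All 7 members up to 1500 bases were above 0, as were 61.2% of all genes of that length. Of the 15 members from 1500 to 3000 bases 11 were above 0, against 46.3%, and of the 10 longer ones 3 were, against 19.5%.

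Role and length go together among the members. The short transcripts of the snoRNP proteins Nop10, Nhp2, Fbl and Gar1, and that of Srm, stand on the high side, while the long Polr1a, Heatr1 and Utp20 stand on the low side, so role and length cannot be told apart here. Odc1 departs from its length class, at -0.63 where the median gene of 1500 to 3000 bases was at -0.02.

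**Figure D3:**
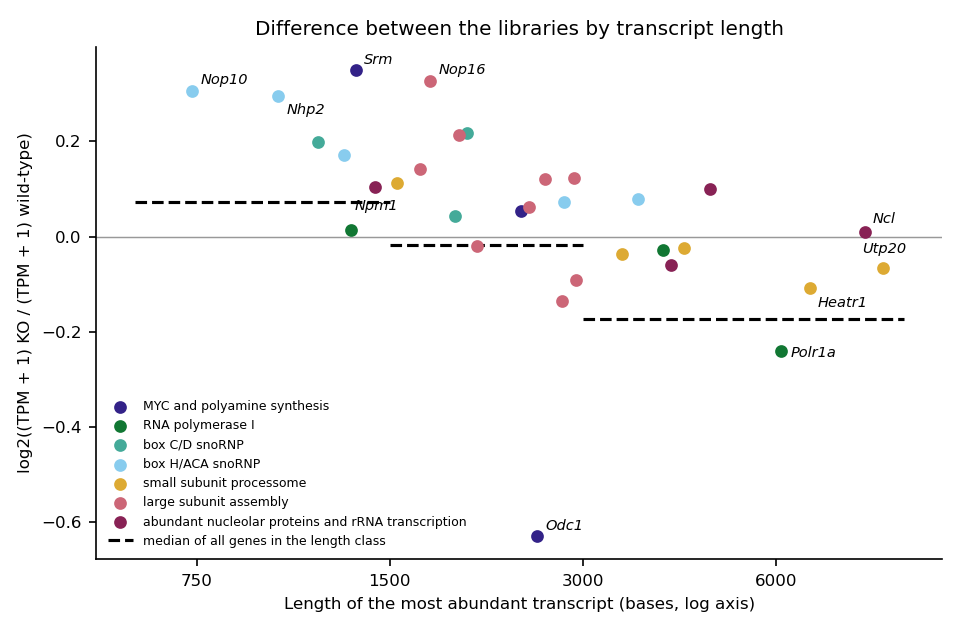
log2 difference of each of the 32 genes (y axis) against the length of its most abundant transcript in bases (log x axis), coloured by role; dashed lines are the medians of all genes up to 1500, from 1500 to 3000 and above 3000 bases. The members descend from left to right (rho -0.70) and lie mostly above the lines of 0.07, -0.02 and -0.17, with Odc1 far below.

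Within genes, 455 merged exons of 31 members had enough reads to compare each exon with the rest of its gene, where a merged exon joins the overlapping exons of a gene's transcripts. A deviation within log2 0.5 was found for 435. Lower by log2 1 or more were 2, both first exons out of 23 tested, where 0.506% of all merged exons and 1.23% of first exons were. Higher by log2 1 or more was none, against 0.233% of all merged exons. This comparison was chosen after the data were seen.

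The first exon of Nolc1, 303 bases at chr19:46075847-46076149, was at 23.7 TPM-equivalents (62.2 read pairs) in the wild-type-labelled library and 2.94 (9.93 read pairs) in the KO-labelled library. Its ratio was 0.124 (0.0572 to 0.246), while the second exon had 1.03 (0.720 to 1.54). The first exon of Polr1b, 268 bases at chr2:129100996-129101263, was at 11.2 TPM-equivalents (25.9 read pairs) and 3.12 (9.32 read pairs), a ratio of 0.279 (0.111 to 0.592). Both were thus shallower in the KO-labelled library, on few reads. Members' first exons had a median deviation of -0.12, and those of all genes -0.18.

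Nolc1 also differed inside the gene. Its exon 5 was at 141 TPM-equivalents in the wild-type-labelled library and 91.4 in the KO-labelled library, a ratio of 0.649 (0.528 to 0.792), while exons 7 to 12 had ratios above 1. The third and the fifth exon each have a form with 3 more bases at the start, again the letters CAG and again in the coding sequence, at chr19:46078873-46078875 and chr19:46079908-46079910 (plus strand). The sequences from GENCODE M21 show them in capitals because they are the only annotated difference between the forms.
Nolc1, exon 3: cttctggctcaaCAGgtccaccaaagcccc
Nolc1, exon 5: aagcctgtccagCAGaaggcagctaagccc
The longer form of the fifth exon held 47.3% of the exon coverage in the wild-type-labelled library and 6.96% in the KO-labelled library, while transcripts with it held 50.02% and 46.7% of Nolc1 TPM. For the third exon, coverage gave 15.02% and 3.74% to the longer form, while transcript TPM gave 16.1% and 32.1%. The measures disagree, for the third exon in direction, so the shares of the forms of Nolc1 are uncertain. Among whole transcripts, NM_001039353 held 42.2% and 31.8%, NM_001039351 41.7% and 36.2%, NM_053086 8.27% and 17.1%, and NM_001039352 7.81% and 14.9%.

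Npm1 showed the reverse at its second exon, of 80 bases. It was at 603 TPM-equivalents (417 read pairs) in the wild-type-labelled library and 1056 (942 read pairs) in the KO-labelled library, a ratio of 1.75 (1.56 to 1.97), while the third exon had 1.00 (0.925 to 1.08). The second exon was thus at 54.4% of the depth of the third in the former and at 95.3% in the latter. One annotated transcript, NM_001252260, lacks the first 39 bases of this exon, which are coding and lie at chr11:33161589-33161627 (minus strand). They are shown in capitals, from GENCODE M21, because reads over them fall only on the longer form.
Npm1, exon 2: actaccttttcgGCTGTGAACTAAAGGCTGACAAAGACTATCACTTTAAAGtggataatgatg
NM_001252260 held 68.8 TPM (7.77% of Npm1) in the wild-type-labelled library and 13.6 TPM (1.43%) in the KO-labelled library. The main transcript NM_008722 held 66.7% and 76.8%, and NM_001252261, which ends in another last exon, 25.5% and 21.8%. Of the coverage assigned to the second exon, the longer form held 96.2% and 98.8%. Transcript and coverage shares thus both placed more of the longer form in the KO-labelled library, in coverage by little. The depth of the whole exon does not separate the forms, and the source of its difference was not tested. Copies of Npm1 elsewhere in the genome may hold part of the reads of this exon, which was not tested.

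**Figure D4:**
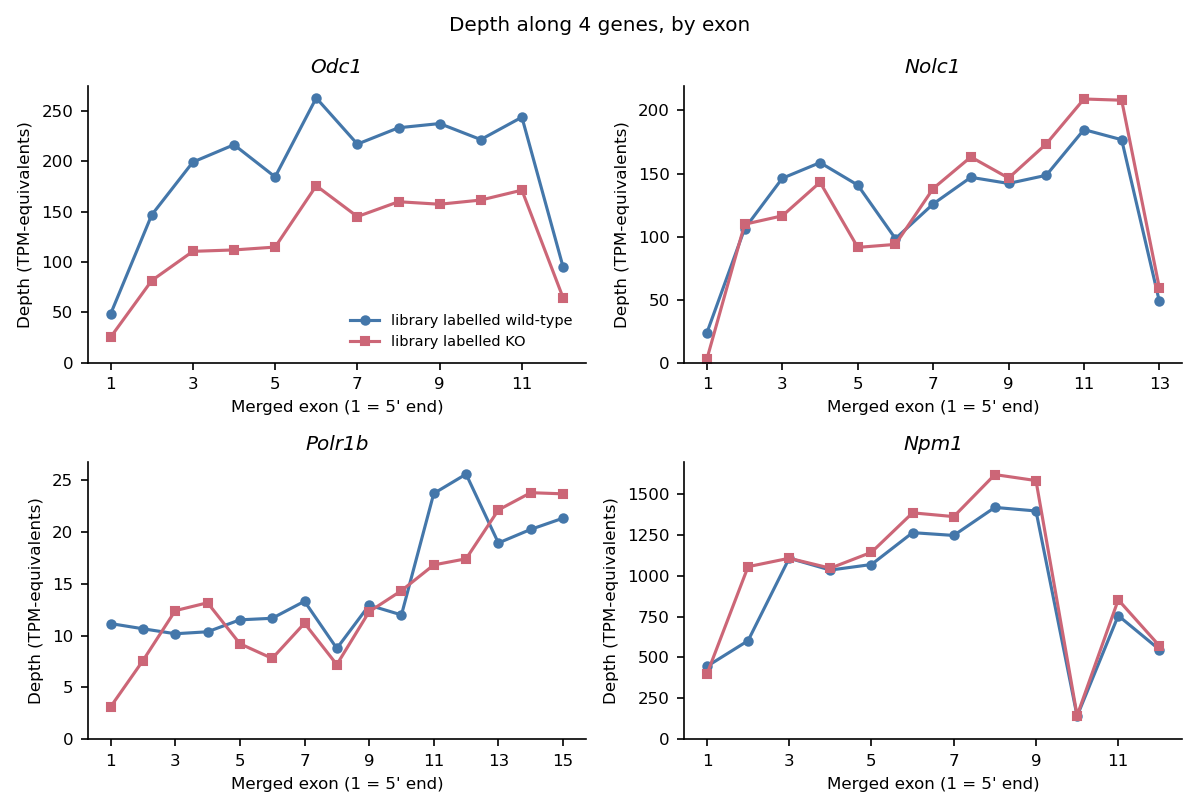
Depth of each merged exon in TPM-equivalents (y axis, from 0) along Odc1, Nolc1, Polr1b and Npm1, in the wild-type-labelled library (blue circles) and the KO-labelled library (red squares). Odc1 is lower in the KO-labelled library at all 12 exons, Nolc1 and Polr1b at the first exon, and Npm1 is higher there at the second exon (603 and 1056).

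Only 5 of the 32 members have more than 1 annotated transcript. Of their 16 transcripts 4 differed by 10 percentage points or more in their share of the gene, against 18.2% of the 8852 transcripts of all such genes at 10 TPM or more. Those 4 were the leading transcripts of Myc and Npm1, NM_001039353 of Nolc1 and NM_021312 of Wdr12, which held 83.8% and 73.7%. The other transcripts of Wdr12, NM_001199060 and NM_001199061, held 11.3% and 19.5%, and 4.87% and 6.87%. In Gnl3 the coding transcript NM_153547 held 64.4% and 68.0%, and the noncoding NR_104298 the rest.

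The members were also set beside other genes of MYC biology. Of 50 other genes used as MYC targets 34 were above 0, 6 reached log2 0.3 upward and 3 downward, with a median of 0.12. Ranbp1, a regulator of the nuclear transport GTPase Ran, was at 186 and 253 TPM (0.44), and Prdx4, a peroxiredoxin, at 20.5 and 28.1 TPM (0.43). Tert, the telomerase reverse transcriptase, was at 7.04 and 4.46 TPM (-0.56), and Hspe1, a mitochondrial chaperonin, at 281 and 212 TPM (-0.41). The median of the list is near that of the members, and the spread is wider.

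The transcription factors of the MYC network had a median of -0.30, and 5 of 11 reached log2 0.3 downward. Max, the partner that MYC needs to bind DNA, was at 140 and 141 TPM. Mxd1, a MAX-binding repressor, was at 21.2 and 14.4 TPM (-0.53) and Mlxip at 65.1 and 45.9 TPM (-0.50), while Mlx was at 95.8 and 97.4 TPM (0.02). Mxd3, another MAX-binding repressor, went the other way, at 15.5 and 39.0 TPM (1.28), and was the one gene of the list past log2 1. Max is named here as the partner of Myc and not for its value.

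The 79 cytoplasmic ribosomal protein genes had a median of 0.06, and 69 were above 0. One reached log2 0.3, Rpl29, at 835 and 1346 TPM (0.69). Rps3a1 was next, at 1852 and 2229 TPM (0.27), and Rplp0 was at 2483 and 2115 TPM (-0.23) and Rpl10 at 2212 and 2132 TPM (-0.05). Many ribosomal protein genes have processed copies in the genome, so single values are uncertain.

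Genes of the cell cycle differed more than the ribosome biogenesis genes. Of 35 genes of DNA replication and the start of S phase 27 reached log2 0.3 upward and none downward, with a median of 0.50, and Rrm2, a subunit of ribonucleotide reductase, was at 50.5 and 112 TPM (1.13). Of 35 genes of mitosis 32 reached log2 0.3 upward, with a median of 0.78, and Birc5, survivin, was at 35.7 and 103 TPM (1.51). Smc4, a condensin subunit, was the one mitotic gene past log2 0.3 downward, at 492 and 369 TPM (-0.42). In the same libraries the ribosome biogenesis genes had a median of 0.07 and Myc a log2 difference of 0.05. With 1 library per genotype the spread of these lists between mice was not measured.

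**Figure D5:**
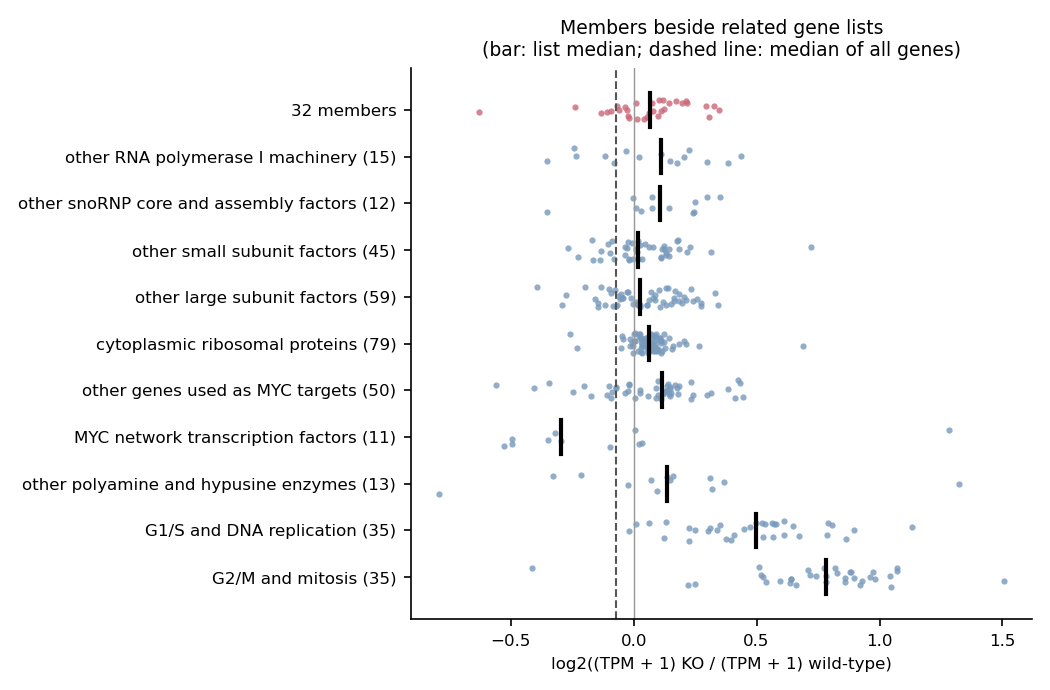
log2 difference of every gene (points) in the 32 members (red) and in 10 related lists (blue), with the list median (black bar), 0 (solid line) and the median of all genes, -0.07 (dashed line). The members and the other ribosome lists lie near 0, and the 2 cell cycle lists are shifted to medians of 0.50 and 0.78.

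The E-box CACGTG reads the same on both strands. It was searched in RefSeq promoters (GRCm38.p6), from 250 bases before to 50 after the start site, and occurred in 8.09% of 27025 genes and in 5 of the 25 members with an entry. Bop1, Fbl, Myc, Npm1, Rrp12, Rrs1 and Srm have no entry in the table used. The 30 bases around each match are printed with the motif in capitals, since it is the site through which MYC is known to bind. The first base of the motif lies at position -60 in Nop2 (chr6:125131811-125131840, plus strand), 3 in Pes1 (chr11:3963965-3963994, plus strand), 18 in Wdr43 (chr17:71616220-71616249, plus strand), 38 in Utp20 (chr10:88826765-88826794, minus strand) and 41 in Mybbp1a (chr11:72441347-72441376, plus strand), where the start site is 1.
Nop2: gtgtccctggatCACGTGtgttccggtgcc
Pes1: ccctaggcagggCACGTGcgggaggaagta
Wdr43: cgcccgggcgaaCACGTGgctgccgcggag
Utp20: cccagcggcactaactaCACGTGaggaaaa
Mybbp1a: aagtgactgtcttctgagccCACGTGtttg
The start site is that of the RefSeq table, which for Mybbp1a lies before the start of the deposited gene model. The log2 differences of these 5 genes ran from -0.07 in Utp20 to 0.12 in Pes1, with Wdr43 at -0.04, Mybbp1a at -0.06 and Nop2 at 0.12. A match is a description of the letters and not of binding.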

How the data were processed

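The members and gene lists were chosen with earlier results of these data known. Trizol was used to extract total RNA and a TruSeq RNA kit to make libraries, per the labels' protocols. HISAT2 was the aligner and mm10 (GRCm38) the build, per the submitters' processing notes. Only annotated RefSeq transcripts were quantified by the authors, using StringTie 1.3.3b per the file headers. The deposited gene tables give TPM, FPKM and coverage (mean read depth per base, a signal not scaled to library size), and the deposited transcript tables add coverage per exon. Not given in the sources used here are the HISAT2 version, read filters and strand setting.

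Values were computed with Python 3.11.15, pandas 2.3.3 and scipy 1.17.1. TPM of rows with the same gene ID were summed, and 24462 of 24532 IDs matched a symbol. A gene entered with 1 TPM or more in either library, and a pseudocount of 1 was added, which understates differences of low genes. Covered bases of transcripts with few reads lay within 2 bases of multiples of 202 (2 mates of 101 bases) in 23.5% and 24.1% of cases, against 2.48% by chance, so read pairs were estimated as covered bases divided by 202. From these came exact Poisson intervals of levels and Clopper-Pearson intervals of ratios. PCR copies are not independent molecules. Exon depth was scaled to TPM-equivalents by library. A merged exon was compared with at least 20 read pairs in a library and 100 in the rest of the gene. Named genes outside the members are the 2 highest and 2 lowest of each list at 5 TPM or more, and others are marked or serve as background. The rules for whole-gene differences were run on simulated read pairs with counting error only. Spread between libraries and the exon and share rules were not simulated. Alternatives were other pseudocounts, minimum levels, units, scalings, parts of the gene and share thresholds.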

Additional observations from a re-analysis of the deposited data

How the results depend on the processing

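The median log2 difference of the members lay between 0.01 (without the last exon) and 0.16 (FPKM) over the alternatives tried, and no member past log2 0.3 changed sign. The count of members higher by log2 0.3 or more was 3, against 7.28% of all genes. It became 1 with a pseudocount of 5 (4.56% of all genes), 6 in FPKM (10.5%) and 1 without the last exon (6.93%). The count lower by log2 0.3 or more was 1 (18.2% of all genes), and became 2 without the last exon (29.7%). Transcripts past the share rule numbered 4 at 10 points, 11 at 5 points and 0 at 20 points. Exons lower by log2 1 or more numbered 2 at a minimum of 20 read pairs, 4 at 10 and 1 at 50, settings chosen after seeing the data. For the changed thresholds the shares of all transcripts and of all exons are not given here. Of 255 single values of members under an alternative, 232 stayed within their counting error and 23 moved further, 15 of them in FPKM. No paired analysis was possible because each genotype has 1 library, and leaving out a replicate was not possible for the same reason. Depth limits single members to a median counting error of 0.10 in log2, and the spread between mice was not measured.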

Other observations

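Several members carry small RNA genes in their introns. The tables list 11 such genes in 5 members, Nop56, Nop58, Wdr43, Gnl3 and Ncl, of which 10 are snoRNAs and 1, Gm24148 in Ncl, is annotated as a miRNA. Their log2 differences ran from -0.53 in Snord70 (0.97 and 0.68 read pairs) to 1.18 in Snord110 (1.06 and 3.94 read pairs). Of the 11, 8 were below 0 and 3 above, where 7394 of all 12029 genes were below 0. They had from 0 to 46.6 read pairs in a library, so most of these values rest on few reads. The best covered were Snora75 in Ncl, a box H/ACA RNA, at 44.9 and 36.02 TPM (45.0 and 46.6 read pairs), and Snord57 in Nop56, a box C/D RNA, at 45.3 and 41.7 TPM (24.7 and 29.3 read pairs). Snord69 and Snord19 in Gnl3 were at 26.2 and 21.2 TPM and at 17.7 and 15.7 TPM, while Gnl3 itself was at 59.4 and 69.1 TPM. Reads of unspliced host RNA cannot be told apart from those of the small RNAs.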
